A study of Rattus norvegicus with 32 samples.

Results

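Potassium channel genes were examined across the tissues of rats that lack *Csf1r*, the receptor of the macrophage growth factor CSF1. The set held every gene on the array with a single symbol beginning with *Kcn*, which gave 75 genes of 14557. It comprised 32 subunits of voltage-gated channels (Kv), 12 of inward rectifiers, 12 of two-pore channels, 5 of channels opened by calcium, sodium or pH, 13 auxiliary proteins that bind to a pore, and *Kcnrg*, a soluble regulator of Kv channels. Each gene was read by 1 probe set, and 66 of the 75 reached an intensity of 20 (log2 of 4.32) on at least 1 brain or pituitary array and were tested there. On the spleen and macrophage arrays 33 did.

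The study disrupted the first coding exon of *Csf1r* in male Dark Agouti (DA) embryonic stem cells, and the line came from 1 clone of them through a Sprague-Dawley (SD) host, so every cell of a KO rat carried the disrupted gene. Csf1r +/+ (WT), Csf1r +/- (HET) and Csf1r -/- (KO) adult female DA/SD rats gave hippocampus, striatum, olfactory bulbs, pituitary gland and spleen, with 2 arrays per genotype and tissue. None of the rats received a treatment named in the labels, and the tissue came from rats that had not been perfused. A further 2 arrays held bone marrow-derived macrophages (BMDM) from adult male DA rats that were Csf1r +/+, grown in recombinant human CSF1.

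Potassium channels let potassium leave or enter the cell along its gradient, set the resting potential and end action potentials. Neurons use many Kv subunits, astrocytes take up potassium through the inward rectifier Kir4.1, and macrophages and microglia carry a small number of channels that set their voltage and feed calcium entry and inflammasome signalling. Among those known from microglia in mice is the two-pore channel THIK-1, encoded by *Kcnk13*. Microglia depend on CSF1R for survival, and the comparison of KO with WT asks which channel genes were lower together with the microglia.

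The labels of 2 tissues went against their marker genes. The 6 arrays labelled olfactory bulbs carried pituitary hormone transcripts (*Gh1* at log2 12.7 to 12.9), whereas the 6 arrays labelled pituitary gland carried *Th*, made by dopamine neurons of the olfactory bulb, at 9.1 to 10.2, with *Gh1* at 5.2 to 7.4. They are named below by their label only. *Csf1r* itself lay between 7.6 and 9.1 on the WT arrays of the 4 regions and between 2.7 and 4.0 on the KO arrays. Another 8 of the 24 region arrays carried transcripts of a second tissue (choroid plexus, cortex or olfactory mucosa), and 2 spleen arrays, HET 2 and KO 2, carried those of thymus. Depth has no counterpart on arrays, where the small number of arrays limits the precision. The median intensity was 15.1 to 21.7 over the region arrays and 16.8 to 19.9 over the others. Nothing in the labels ties a replicate number to a rat, and arrays of different regions may share rats, so the p-values measure only the spread between these arrays. In bulk tissue, fewer cells of a type and less RNA per cell cannot be told apart.

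The number of channel genes above the intensity limit was counted in each tissue. Of the 75 genes, 48 reached the limit on every hippocampal array, 48 on every striatal one, 53 on the arrays labelled pituitary gland and 39 on the arrays labelled olfactory bulbs. These are 64%, 64%, 70.7% and 52% of them, beside 55%, 55.2%, 57.8% and 57% of all 14557 genes. In the spleen 13 did so (17.3%, beside 50.3% of all genes), and on the BMDM arrays 9 did (12%, beside 49.4%). The spleen and BMDM arrays were normalized apart from the others, so the limit is not the same level in both sets. No array of the tissue reached it for 16 genes in the hippocampus and for 46 in the spleen, and neither BMDM array did for 60. The inward rectifiers were all tested in the brain (12 of 12), beside 28 of the 32 Kv subunits, 11 of the 13 auxiliary proteins and 10 of the 12 two-pore channels.

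**Figure D1:**
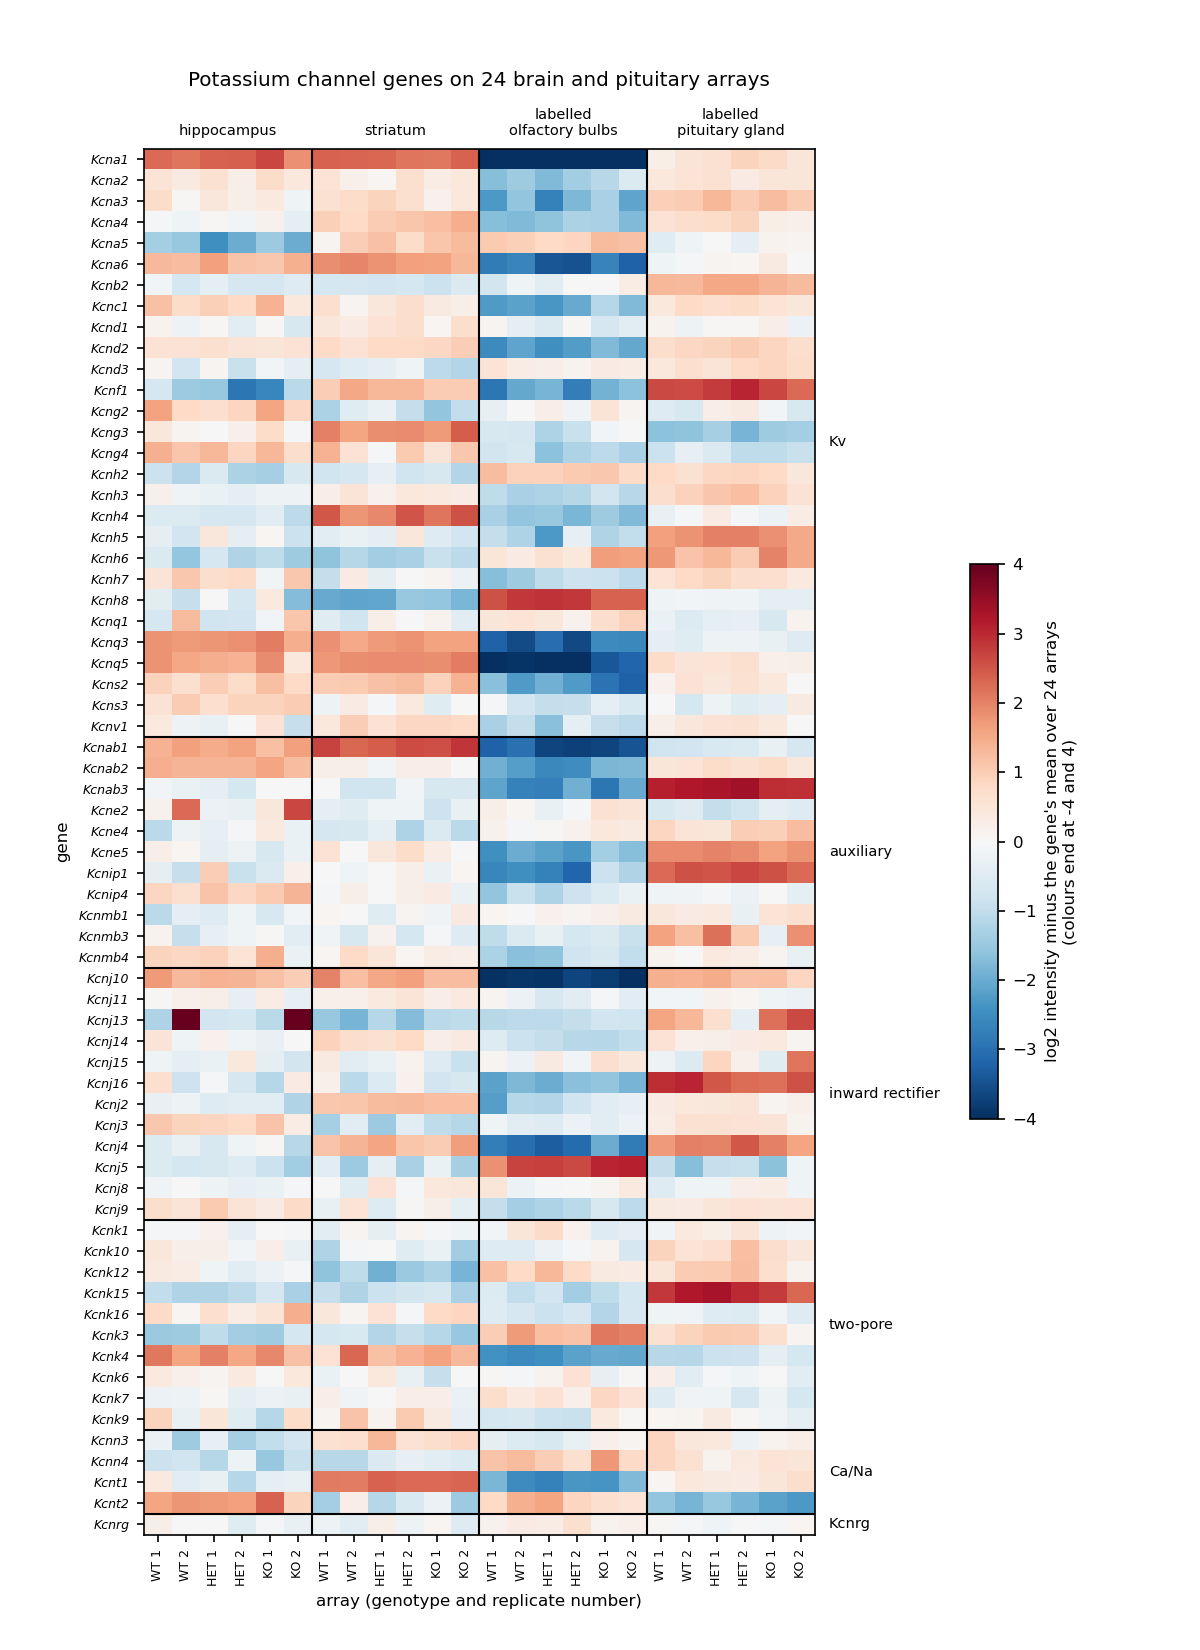
The 66 channel genes tested on the brain and pituitary arrays (rows, by family) across the 24 arrays (columns, by labelled tissue and genotype). Colour is the log2 intensity minus the gene's own mean over the 24 arrays, and the colours end at 4 in either direction. The tissues stand apart, with 38 genes lowest on the arrays labelled olfactory bulbs, and no gene passed the test between KO and WT over the mean of the 4 regions.

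The first question was whether any channel gene was lower where microglia were missing. Across the mean of the 4 regions, 122 of the 10663 genes tested (1.14%) passed an adjusted p of 0.05 between KO and WT (limma, Benjamini-Hochberg), 114 lower (1.07%) and 8 higher (0.075%), and none of the 66 channel genes did. All 9 microglia markers measured were lower in KO, with a median difference of -3.89 on the log2 scale, from -1.97 for *Tmem119* to -5.20 for *Csf1r*. The channel differences ran from -0.44 to 0.49, with a median of 0.01, beside -0.01 for all genes. At an unadjusted p under 0.05 there were 10 channel genes (15.2%), 4 lower and 6 higher, beside 9.42% of all genes. The methods' t test gave 3 of the 66 channel genes at an unadjusted p under 0.05, beside 739 of all 10663 genes. After Benjamini-Hochberg adjustment it gave 0 channel genes, beside 1 of all genes.

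No channel known from microglia or macrophages passed the test over the mean of the 4 regions. *Kcnk13* lay between 1.83 and 3.21 on all 32 arrays, WT ones included, and was not tested. *Kcne3*, an auxiliary subunit of epithelial channels, also stayed below the limit on every array. The probe set for *Kcnk13* gave a dim signal on WT arrays that carried the microglia markers, so a difference in it was not detectable at this signal. Of 8 genes on this list, 6 were tested, with a median difference of 0.04.

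*Kcnk6* encodes the two-pore channel TWIK-2, which in mouse macrophages carries potassium out of the cell before inflammasome activation. It reached the limit on only 1 of the 24 region arrays, so a difference was not detectable at this signal. *Kcna3* encodes Kv1.3, a Kv channel of T cells and activated microglia, and was above the limit on all 24 arrays. In the striatum its WT arrays were at 8.12 and 8.25, HET at 8.42 and 8.15, and KO at 7.68 and 7.94. The striatal KO arrays were both below the WT arrays, but the difference over the 4 regions was -0.07 (95% interval -0.36 to 0.23).

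*Kcnn4* encodes the calcium-activated channel KCa3.1 of lymphocytes and macrophages, and its difference was 0.02 (interval -0.26 to 0.31). *Kcnj2* encodes the inward rectifier Kir2.1, and it had a difference of 0.15 (interval -0.16 to 0.46). *Kcnn3*, the small-conductance calcium-activated channel SK3 that neurons and astrocytes also use, had a difference of 0.06 (interval -0.40 to 0.53). *Kcna5*, the channel Kv1.5 of cardiac and smooth muscle and of some microglia cultures, had 0.26 (interval -0.01 to 0.53). Low signal limited some of these values. *Kcnk6* was below the limit on all WT region arrays, and *Kcnn4* on those of the hippocampus (3.57 and 3.64) and the striatum (3.34 and 3.32). *Kcna5* was below it on every hippocampal array (mean 3.80).

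**Figure D2:**
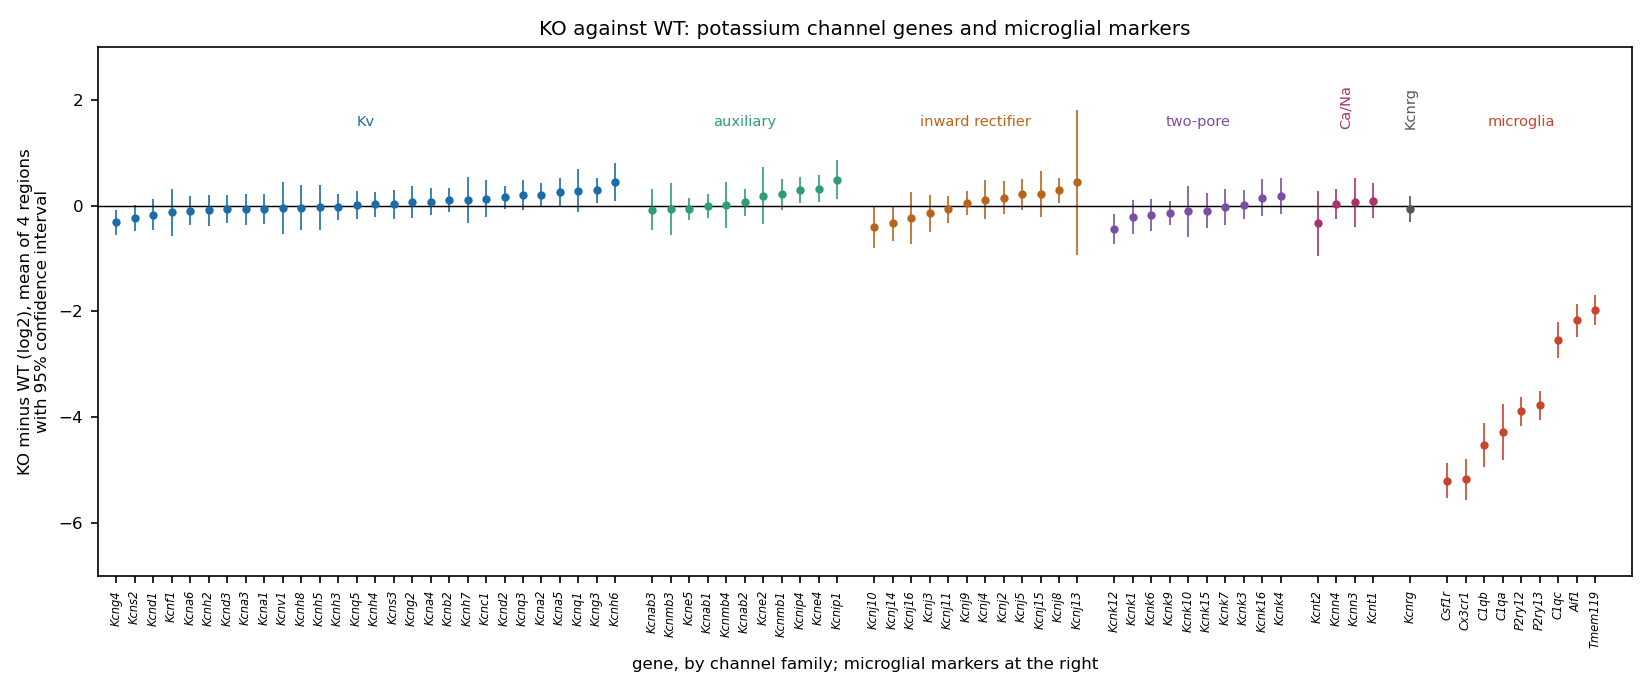
KO minus WT differences (log2) for the mean of the 4 regions, for the 66 channel genes tested, by family, and for 9 microglia markers at the right (6 values, 2 per genotype, enter each fit). Points are differences and bars their 95% intervals. The channel genes lie between -0.44 and 0.49, whereas the markers lie between -1.97 and -5.20.

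*Kcnk12* and *Kcnip1* marked the 2 ends of the range. *Kcnk12* encodes THIK-2, the close relative of THIK-1. In the hippocampus its WT arrays were at 7.30 and 7.24, HET at 6.76 and 6.52, and KO at 6.70 and 6.84. On the arrays labelled olfactory bulbs the WT values were 8.12 and 7.74, the HET values 8.27 and 7.69, and the KO values 7.28 and 7.25. KO lay below WT without overlap in both tissues, whereas in the striatum (WT 5.31 and 5.91, KO 5.68 and 5.07) and on the arrays labelled pituitary gland (WT 7.43 and 7.95, KO 7.61 and 7.06) the values overlapped. The difference over the 4 regions was -0.44 (SE 0.121, adjusted p = 0.257 by limma). *Kcnip1*, a calcium-binding partner of the Kv4 channels, had 0.49 (SE 0.157, adjusted p = 0.355).

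The other genes below an unadjusted p of 0.05 came from several families. *Kcng3* (0.29) and *Kcng4* (-0.32) encode Kv subunits that form no channel alone, and *Kcnh6* (0.45) an ERG-type channel. *Kcnip4* (0.30) is another Kv4 partner, and *Kcne4* (0.32) an auxiliary subunit that damps Kv channels. *Kcnj8* (0.29), *Kcnj10* (-0.41) and *Kcnj14* (-0.34) are inward rectifiers. Their adjusted p-values lay between 0.357 and 0.511, so none passed. Signal was low for some of them. *Kcng4* reached the intensity limit on no array labelled olfactory bulbs or pituitary gland. *Kcne4* reached it on no striatal array and on 2 hippocampal arrays.

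KO values lay below WT without overlap over the means of regions for 8 channel genes (12.1%, beside 20.9% of all genes) and above for 12 (18.2%, beside 16.6%). No channel gene was lower without overlap in at least 3 of the 4 regions, where 4.85% of all genes were. Higher without overlap in at least 3 were 2 channel genes (3.03%, beside 2.87% of all genes). These were *Kcna5* and *Kcnj13*, an inward rectifier of choroid plexus epithelium, both in the striatum and under both labels named above as going against their markers. *Kcnj13* on the arrays labelled pituitary gland was at 7.05 and 6.80 in WT, 6.11 and 5.12 in HET and 7.67 and 8.11 in KO. In the striatum the WT mean of *Kcnj13* was 3.78, below the intensity limit, and its KO mean was 4.42, just above it. On the arrays labelled olfactory bulbs its means were 4.40 in WT and 4.69 in KO, also near the limit. Its signal was therefore low in both of these tissues.

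Channels of other non-neuronal cells gave no call either. *Kcnj10* encodes Kir4.1, the main potassium-uptake channel of astrocytes. It was at 9.53 and 9.12 in WT hippocampus, 9.22 and 9.19 in HET and 9.0 and 8.82 in KO. On the arrays labelled pituitary gland it was at 9.24 and 9.22 in WT, 9.33 and 9.01 in HET and 9.05 and 8.69 in KO. KO was below WT without overlap in both tissues, and the difference over the 4 regions was -0.41 (SE 0.166, adjusted p = 0.503), to which the arrays labelled olfactory bulbs add values below the limit. Of 5 genes on the astrocyte list, 4 were tested, with a median of -0.23. Among them *Kcnj16*, which encodes the Kir5.1 subunit that pairs with Kir4.1, was lower in KO at an adjusted p under 0.05 only in the fit without the 8 arrays that carried a second tissue. *Kcnk1* encodes the two-pore channel TWIK-1. On the arrays labelled olfactory bulbs it was at 9.31 and 9.88 in WT, 10.18 and 9.58 in HET and 8.89 and 9.01 in KO, lower in KO without overlap (-0.64, adjusted p = 0.265). Over the mean of the 4 regions it was lower without overlap too (-0.22, adjusted p = 0.740).

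All 4 genes of the vascular list were tested, and their median was 0.24. *Kcnj8* encodes Kir6.1, the pore of the ATP-sensitive channel of pericytes and vascular smooth muscle. Its striatal arrays were at 5.32 and 4.85 in WT, 5.92 and 5.29 in HET and 5.77 and 5.80 in KO. *Kcnj11* (Kir6.2, the pore paired with the sulphonylurea receptor of neurons and endocrine cells) was at 5.53 and 5.51 in WT and 5.57 and 5.71 in KO striatum. *Kcnmb1*, the smooth-muscle subunit of the large-conductance calcium-activated channel, was at 5.47 and 5.37 in WT and 5.23 and 5.73 in KO striatum. In the striatum *Kcnj8* was higher in KO without overlap, while *Kcnmb1* overlapped. Neither of the 2 tested genes of the T cell list passed the test (median -0.02).

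Neuronal channel groups also held no call over the mean of the 4 regions. The tested genes were 2 of 3 for the M-current (the slow Kv7 current that restrains firing), 1 of 2 for fast spiking, 5 of 7 for the A-type current and its partners, and 3 of 4 for the G protein-gated inward rectifiers. The A-type list had a median of 0.15, the G protein-gated list 0.05 and the M-current list 0.10. Outside the *Kcn* genes, 10 partner proteins (of 15) and 6 potassium pumps and cotransporters (of 13) were tested on the region arrays. None was called between KO and WT in the mean of the 4 regions or in any region. In the spleen 3 partner proteins and 6 pumps and cotransporters were tested, and none was called.

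In single regions, the calls came from 1 tissue. In the hippocampus 65 genes (0.61%) passed and no channel gene, in the striatum 73 (0.685%) and none, and on the arrays labelled pituitary gland 100 (0.938%) and none. At an unadjusted p under 0.05 there were 3, 5 and 2 channel genes, beside 8.67%, 6.85% and 6.11% of all genes. The hippocampal ones were *Kcne5* (-0.62), an auxiliary subunit, *Kcne4* and *Kcnj2* (-0.58). For *Kcne4* the WT arrays were below the limit and overlapped the KO arrays, so no difference is given. The striatal ones were *Kcnj8* (0.70), *Kcna5* (0.64), *Kcna4* (0.47), which encodes the rapidly inactivating channel Kv1.4, *Kcnk3* (-0.67), an acid-sensitive two-pore channel, and *Kcnj14* (-0.51). *Kcna4* was at 8.73 and 8.57 in WT striatum, 8.79 and 8.89 in HET and 9.0 and 9.25 in KO. Those on the arrays labelled pituitary gland were *Kcna4* (-0.42) and *Kcnj15*. The WT arrays of *Kcnj15* were below the limit and overlapped the KO arrays, so no difference is given. Without hippocampal KO 1, *Kcnq5* (a Kv7 subunit of the M-current) passed in the hippocampus. Without KO 1 of the arrays labelled pituitary gland, *Kcnj15* (Kir4.2) passed there, and the KO array left, KO 2, was also the highest in olfactory mucosa transcripts (marker mean 8.7). *Kcnj15* on that array was at 6.16, beside 3.54 on KO 1 and 3.85 and 3.48 in WT. Leaving out the 8 arrays with a second tissue, *Kcnmb3* passed on the arrays labelled pituitary gland. It reached the limit on 3 of these arrays. With all arrays, KO 2 was at 4.58 and KO 1, the lowest of them, at 2.44, beside a WT mean of 4.17.

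On the arrays labelled olfactory bulbs, which carried the pituitary hormones, 193 genes (1.81%) passed, and 4 of the 66 channel genes (6.06%) were among them. Of these, 3 were higher (4.55%, beside 0.76% of all genes) and 1 was lower (1.52%, beside 1.05%). Of the 4, 2 were below the intensity limit in both groups, and with a filter on the 4 arrays compared (chosen after seeing the data) 2 passed. *Kcnj2* was at 3.69 and 4.75 in WT, 4.73 and 5.11 in HET and 5.49 and 5.57 in KO. Both KO arrays were above all others, and the difference was 1.31 (SE 0.266, adjusted p = 0.0195 by limma). WT 1 was the lowest of the 6 arrays and lay below the intensity limit, as did the WT mean (4.22). The size of the *Kcnj2* difference therefore rests partly on signal below the limit. *Kcnh6*, an ERG-type channel of the kind that repolarises pituitary cells in rats, was at 6.06 and 5.92 in WT, 6.18 and 6.01 in HET and 7.24 and 7.18 in KO. Both KO arrays were above the other 4, with a difference of 1.22 (SE 0.292, adjusted p = 0.0445).

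*Kcnq3*, a Kv7 subunit of the M-current, was at 3.49 and 3.13 in WT, 3.68 and 3.10 in HET and 4.19 and 4.13 in KO. *Kcns2*, a Kv subunit that forms no channel alone, was at 3.98 and 3.38 in WT, 3.74 and 3.38 in HET and 2.69 and 2.42 in KO. All 6 arrays were below the intensity limit for both genes, which passed the filter through other regions. Both groups being below the limit, no difference is given for *Kcnq3* (adjusted p = 0.0475 in the fit) or *Kcns2* (adjusted p = 0.0241 in the fit).

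**Figure D3:**
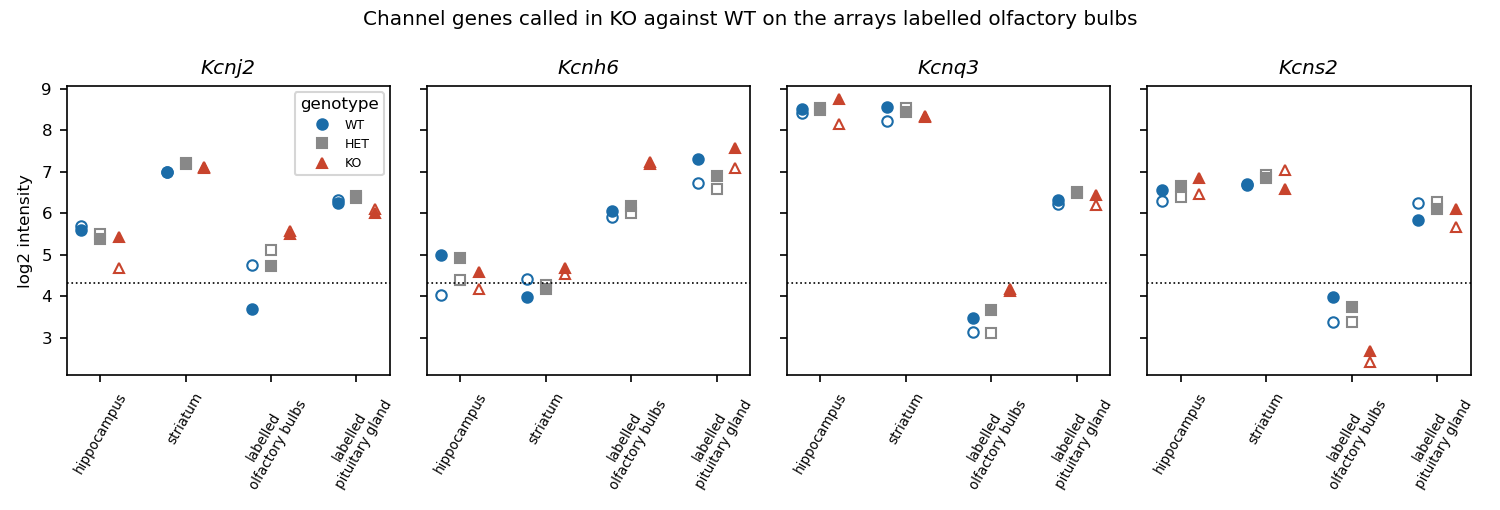
Log2 intensity of the 4 channel genes that passed the test between KO and WT on the arrays labelled olfactory bulbs, shown in all 4 labelled tissues by genotype, with 2 arrays each (filled, replicate 1; open, replicate 2). The dotted line is the intensity limit of 20 (4.32). On the arrays labelled olfactory bulbs, only *Kcnj2* and *Kcnh6* have KO arrays above it.

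The 4 calls were not stable to the choice of arrays. With KO 1, KO 2 or WT 1 left out, with the arrays of this tissue alone, or without the 8 arrays that carried a second tissue, none passed, and without WT 2 there were 7 (a lone array was then assumed to vary like the other groups). On the same arrays 29 channel genes were higher in KO without overlap (43.9%, beside 27.7% of all genes) and 11 lower (16.7%, beside 19.2%). At an unadjusted p under 0.05 there were 17 (25.8%, beside 14.2%). The median difference of the channel genes was 0.23, beside 0.05 for all genes. General neuronal markers moved with them, with a mean of 7.9 and 7.6 in KO, 7.1 and 7.5 in WT and 7.4 and 7.3 in HET. The 4 tested had a median difference of 0.58, and the pituitary hormones 0.08. Their part in the result was not tested.

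The KO effect differed between the 4 regions for 16 genes (0.15%, F test in limma) and for no channel gene. At an unadjusted p under 0.05 there were 9 (13.6%, beside 8.23% of all genes), with *Kcnj2* the lowest at an adjusted p of 0.141. In *Kcnj2* the KO minus WT difference was -0.58 in the hippocampus and 1.31 on the arrays labelled olfactory bulbs. Without hippocampal KO 1, *Kcnj2* and *Kcnq5* passed, without WT 2 of the arrays labelled olfactory bulbs *Kcnj2*, and without KO 1 of the arrays labelled pituitary gland *Kcnj15*.

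HET rats, with 1 disrupted copy, gave no call over the mean of the 4 regions. No gene of 10663 passed (0%, limma), and 350 (3.28%) did at an unadjusted p under 0.05. Among the channel genes this was *Kcng4* alone (-0.40, adjusted p = 1.00). Its signal was below the intensity limit on all arrays labelled olfactory bulbs or pituitary gland.

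Tissue separated nearly all channel genes, as it did genes in general. Across the 24 arrays, 61 of 66 (92.4%) differed between the 4 labelled tissues (F test in limma), beside 90.1% of all genes. The 5 that did not were *Kcnk1*, *Kcnk6*, *Kcnk9*, *Kcnj8* and *Kcnj15*. Of the 66, 6 had passed the intensity filter through arrays of 1 region only. The direction was unlike that of other genes, since 38 of the 66 had their lowest mean on the arrays labelled olfactory bulbs (31 of them past the next tissue), where 28.4% of all genes did. For 14 of the 38 all arrays of that label were below the intensity limit, and for 4 of them those of the next tissue were too, so that their order has no meaning. Only 10 had their highest mean there, where 47.5% of all genes did. The share was 19 of 28 among Kv subunits, 8 of 11 among auxiliary proteins, 7 of 12 among inward rectifiers and 3 of 10 among two-pore channels. The highest mean was in the hippocampus for 18 genes, the striatum for 17 and the arrays labelled pituitary gland for 21.

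In pairs of tissues, the channel genes were called more often between hippocampus and striatum than genes in general, 30 of 66 (45.5%, beside 24.3%). With the WT arrays alone, 16 passed, and the share of all genes in that fit is not given. Against the arrays labelled olfactory bulbs, 53 were called from the hippocampus (80.3%, beside 77.2%) and 54 from the striatum (81.8%, beside 76.7%). In both, 38 were higher in the brain region (57.6%, beside 26.6% and 27.1% of all genes). Against the arrays labelled pituitary gland, 45 were called from the hippocampus (68.2%, beside 61.2%) and 46 from the striatum (69.7%, beside 60.7%). Between the arrays labelled olfactory bulbs and pituitary gland 52 were called (78.8%, beside 66.6%), of which 41 were lower on the former (62.1%, beside 27.3%).

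Among the genes lowest on the arrays labelled olfactory bulbs, *Kcna1*, *Kcnj10* and *Kcnq5* were high in the other 3 tissues. *Kcna1*, the axonal channel Kv1.1, had means of 10.61 in the hippocampus, 10.61 in the striatum and 8.92 on the arrays labelled pituitary gland, against 3.22 on those labelled olfactory bulbs. All 6 arrays of the last were below the intensity limit, so the step from the third tissue is given as at least 4.6, while hippocampus and striatum did not differ beyond their spread (adjusted p = 0.981). *Kcnj10* lay at 2.78 to 4.15 on the arrays labelled olfactory bulbs and at 8.69 to 9.83 on the other 18, a step of at least 4.77. *Kcnq5* lay at 3.37 to 4.40 there, with means of 9.47 in the striatum, 9.01 in the hippocampus and 8.08 on the arrays labelled pituitary gland. *Kcna1* and *Kcnq5* were named after their values were seen.

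In the hippocampus the leads over the next tissue were small. *Kcng2*, a Kv subunit without a channel of its own, had a mean of 5.45, 0.97 above the arrays labelled olfactory bulbs (SE 0.202, adjusted p = 3.75e-04). *Kcnip4* had a mean of 8.94, 0.89 above the striatum (SE 0.142, adjusted p = 1.89e-04), with hippocampal arrays at 8.62 to 9.33 and striatal ones at 7.71 to 8.29. *Kcnab2*, the cytoplasmic Kv beta 2 subunit, had a mean of 10.17, 0.79 above the arrays labelled pituitary gland. *Kcns3* was also among the 4 largest leads, but its mean of 4.19 was below the intensity limit, which it reached on 2 hippocampal arrays and on none of the other 18, so no lead is given.

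The striatum had larger leads. *Kcnh4*, an ELK-type Kv channel, ranged from 7.34 to 8.14 over the 6 striatal arrays and from 3.75 to 5.92 on all others. Its mean of 7.81 was 2.24 above the next tissue (SE 0.164, adjusted p = 1.77e-08), with no overlap. *Kcnt1*, the sodium-activated channel Slack, had a mean of 8.75, a lead of 1.83 (SE 0.177). *Kcng3* had a lead of 1.68 (SE 0.154), and *Kcnab1*, the Kv beta 1 subunit, a lead of 1.08 (SE 0.108) over the hippocampus.

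On the arrays labelled olfactory bulbs, where most channel genes were low, a few were high. *Kcnj5*, which encodes the G protein-gated rectifier GIRK4, ranged from 6.23 to 7.52 there and from 2.70 to 4.24 on the other 18 arrays. All 18 were below the intensity limit and the gene had passed the filter only through the tissue where it was high, so its lead is given as at least 2.75 (mean 7.07 against the limit). *Kcnh8*, another ELK-type channel, had a mean of 8.65 and a lead of 2.86 (SE 0.254, adjusted p = 4.96e-08). *Kcnk3*, the acid-sensitive two-pore channel TASK-1, had a lead of 0.82 (SE 0.150), with arrays at 7.15 to 8.29. *Kcnn4* had a mean of 5.53, a lead of 0.58 (SE 0.175, adjusted p = 8.06e-03), and did not pass without the 8 arrays with a second tissue (adjusted p = 0.172).

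The arrays labelled pituitary gland, which carried the olfactory bulb genes, also had genes well above the other tissues. *Kcnk15*, which encodes the two-pore subunit TASK-5, ranged from 6.95 to 7.95 there and from 3.25 to 4.11 on the other 18 arrays, all below the intensity limit. It had passed the filter only through the tissue where it was high, so its lead has only a bound, at least 3.22 on the log2 scale (mean 7.54 against the limit). *Kcnab3*, the Kv beta 3 subunit, had a mean of 9.10 and a lead of 3.37 over the hippocampus (SE 0.187). *Kcnj16* had a mean of 7.31, a lead of 2.86 (SE 0.286), and *Kcnip1* one of 9.28, a lead of 2.50 (SE 0.239). In all 4 genes the lowest of these 6 arrays lay above the highest of the other 18.

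Some channel levels varied between arrays of 1 tissue along with transcripts of a second tissue. In the hippocampus, *Kcnj13*, which encodes Kir7.1, was at 10.61 on WT 2 and 10.17 on KO 2, and at 4.24 to 4.77 on the other 4. *Kcne2*, an auxiliary subunit of choroid plexus and stomach, was at 7.42 and 7.81 on these 2 arrays and at 4.85 to 5.59 on the others. *Kcnq1*, the channel that pairs with *Kcne2* in epithelia and that was named after its values were seen, was at 5.05 and 4.89, against 2.98 to 3.67. The mean of 6 choroid plexus markers was 9.4 and 9.5 on the same 2 arrays and 4.3 to 5.2 on the rest. Both arrays are of different genotypes, and neither choroid plexus channel was called between KO and WT in the hippocampus.

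**Figure D4:**
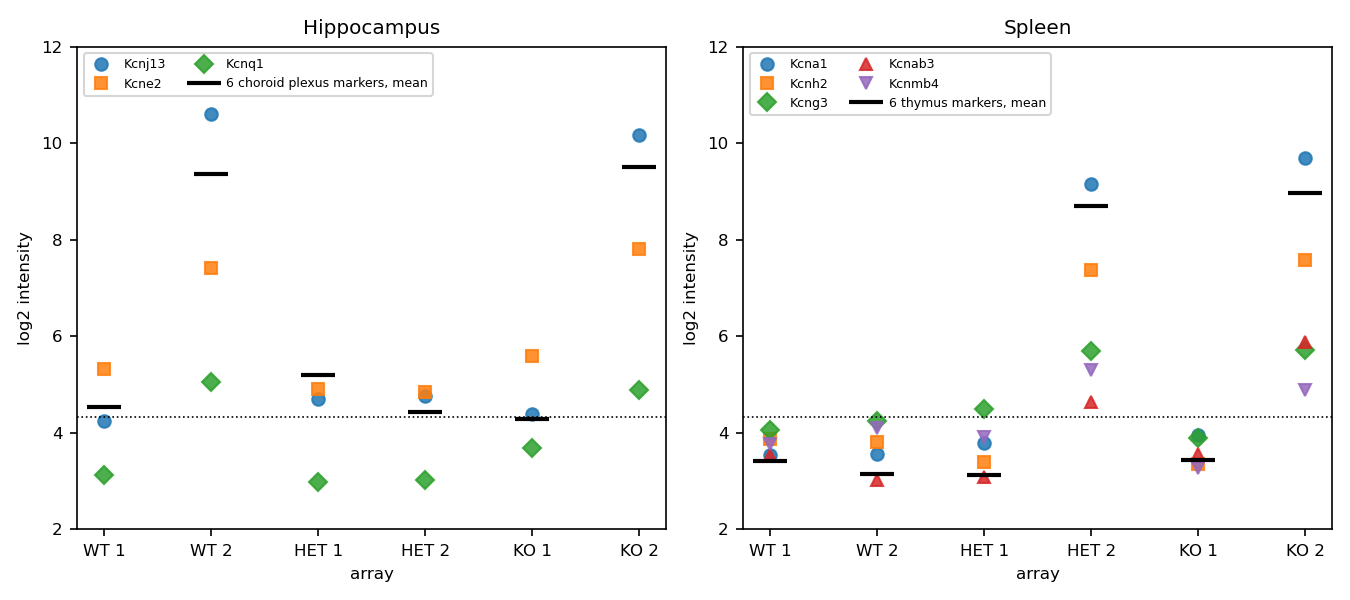
Log2 intensity of channel genes on each hippocampus array (left) and each spleen array (right), by genotype and replicate. Black bars are the mean of 6 choroid plexus markers (left) and 6 thymus markers (right), and the dotted line is the intensity limit of 20 (4.32). *Kcnj13*, *Kcne2* and *Kcnq1* are high on hippocampus WT 2 and KO 2, and *Kcna1* and *Kcnh2* on spleen HET 2 and KO 2.

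In the spleen, 1 gene of 9392 passed between KO and WT (0.0106%, limma) and no channel gene of 33. At an unadjusted p under 0.05 there were 6 channel genes, all lower (18.2%, beside 4.91% of all genes), and none higher. *Kcnj10* was at 5.75 and 5.35 in WT, 5.60 and 4.24 in HET and 3.34 and 3.38 in KO. Both KO arrays were below the limit, so it was lower by at least 1.23, which did not pass (adjusted p = 0.282 in the fit). *Kcnmb1* was at 5.86 and 5.82 in WT, 5.91 and 4.0 in HET and 5.18 and 4.69 in KO (difference -0.91, adjusted p = 0.706). *Kcnk12* was at 6.61 and 5.60 in WT, 6.53 and 5.61 in HET and 4.74 and 5.07 in KO, and *Kcna2*, the axonal channel Kv1.2, was at 8.11 and 7.38, 7.51 and 6.07, and 6.37 and 5.93. *Kcne5* was at 5.41 and 4.84 in WT and 4.14 and 4.25 in KO, lower by at least 0.80. *Kcnd2*, a Kv4 channel, was at 4.52 and 3.42 in WT and 2.92 and 2.61 in KO, and since its WT mean was below the limit too, no difference is given. In all 6 the KO arrays lay below the WT arrays without overlap. Over the 33 channel genes 8 did (24.2%), beside 19% of all genes.

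The result in the spleen changed with the array KO 1 left out. KO 2 was then the single KO array, so a count of channel genes from that fit is not read as a result. In that fit *Kcnj10* was lower by at least 1.23 and *Kcnmb1* had a difference of -1.15. KO 2 was at 9.0 for the mean of 6 thymus markers and HET 2 at 8.7, against 3.1 to 3.4 on the other 4 spleen arrays. *Kcna1* was at 3.54 and 3.57 in WT, 3.78 and 9.16 in HET and 3.94 and 9.70 in KO. *Kcnh2*, an ERG-type channel, was at 3.87 and 3.81, 3.39 and 7.37, and 3.34 and 7.58. Both genes were high on the same 2 arrays and low on the other 4. *Kcna3* was at 7.98 and 7.77, 7.86 and 8.91, and 7.69 and 9.0, and *Kcnn4* at 7.93 and 8.23, 7.75 and 9.17, and 7.55 and 9.21. Both channels of T cells were thus highest on the 2 arrays with thymus transcripts, and neither was called with all arrays in the fit. In the opposite direction *Kcnn3* was at 6.53 and 5.74, 6.75 and 4.44, and 6.57 and 3.24.

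Macrophages grown in CSF1 were set against WT spleen to see which channels these cells carried. Between BMDM and WT spleen 4029 of 9392 genes passed (42.9%), and 14 of the 33 channel genes (42.4%), 5 higher (15.2%, beside 18.1%) and 9 lower (27.3%, beside 24.8%). Of the 14, 9 were below the intensity limit on both arrays of the lower group (3 of the 5 higher and 6 of the 9 lower) and so had passed the filter through the group where they were high. Sex, strain, and culture differed together with the cell source and cannot be told apart. The count fell with either WT spleen array left out and rose with either KO spleen array left out, each leaving 1 array in a group. It was 9 with the intensity limit at 50. The share of all genes in these fits is not given, so the changes are not read as particular to channel genes.

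The channels higher in macrophages included 2 of the microglia or macrophage list. *Kcnj2* was at 6.56 and 7.51 in BMDM and at 4.82 and 5.04 in WT spleen, a difference of 2.11 (SE 0.352, adjusted p = 0.0083 by limma). *Kcnk6* was at 6.64 and 6.40 against 5.13 and 4.96, a difference of 1.48 (SE 0.225, adjusted p = 0.0065). *Kcnj13*, known from epithelia, was at 5.64 and 5.18 against 3.37 and 3.25, so that both WT spleen arrays were below the intensity limit and the difference was at least 1.09 (adjusted p = 0.0039 in the fit). In all 3 genes the BMDM arrays were above the spleen arrays of each genotype. Of the other microglia or macrophage genes tested here, *Kcna3* was lower (-2.99, adjusted p = 0.0061 by limma). *Kcnn3* (-1.40) and *Kcnn4* (0.21) were not called.

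*Kcnrg* was at 4.63 and 4.90 against 3.32 and 3.06 (at least 0.44, adjusted p = 0.0062 in the fit), and *Kcnk7*, a two-pore subunit that forms no channel alone, at 4.99 and 4.45 against 3.77 and 3.64 (at least 0.40, adjusted p = 0.0275 in the fit). WT spleen was below the intensity limit for *Kcnrg* and *Kcnk7* as for *Kcnj13*, and the bounds are the BMDM mean minus the limit. *Kcnn4* was high in both, at 8.27 and 8.31 in BMDM and 7.93 and 8.23 in spleen, and was not called (0.21). *Kcnk13* and *Kcne3* stayed below the limit in BMDM, at 2.49 and 2.63 and at 3.46 and 3.64.

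The start regions of the genes higher in macrophages are shown because these genes were called higher there than in WT spleen. Their level was not always high, with *Kcnk7* at a BMDM mean of 4.72, near the intensity limit. In macrophages the myeloid factor PU.1 binds many genes. The 250 bases before the RefSeq start are given for the 3 genes that matched (*Kcnk6* and *Kcnrg* did not), on the gene's strand in build GRCr8, with capitals for GAGGAAG or its complement CTTCCTC, a purine-rich motif of the type that PU.1 binds. *Kcnj2* is at chr10:96559975-96560224 on the plus strand, *Kcnj13* at chr9:95518987-95519236 on the minus strand and *Kcnk7* at chr1:212419305-212419554 on the plus strand.
Kcnj2: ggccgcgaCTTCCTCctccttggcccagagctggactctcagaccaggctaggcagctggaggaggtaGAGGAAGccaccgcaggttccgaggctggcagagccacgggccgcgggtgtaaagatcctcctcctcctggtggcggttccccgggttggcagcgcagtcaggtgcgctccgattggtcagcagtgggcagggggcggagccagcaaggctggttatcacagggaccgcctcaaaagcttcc
Kcnj13: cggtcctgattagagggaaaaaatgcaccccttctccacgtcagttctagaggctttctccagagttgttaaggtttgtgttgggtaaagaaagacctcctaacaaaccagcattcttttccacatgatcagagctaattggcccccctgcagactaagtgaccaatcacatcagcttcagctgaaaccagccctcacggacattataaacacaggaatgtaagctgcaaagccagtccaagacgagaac
Kcnk7: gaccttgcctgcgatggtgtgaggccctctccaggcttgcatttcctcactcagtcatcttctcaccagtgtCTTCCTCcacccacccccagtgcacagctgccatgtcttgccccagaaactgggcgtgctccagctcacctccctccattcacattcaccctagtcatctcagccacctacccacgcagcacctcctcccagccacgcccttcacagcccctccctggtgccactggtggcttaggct
The *Kcnj2* window held the motif at 2 places and the *Kcnk7* window at 1, and the *Kcnj13* window held none. The motif on either strand was in 3425 of 33469 such windows (10.2%) and in 12 of the 51 channel genes matched (23.5%). The AP-1 motif TGACTCA was in 4.05% of all windows and in 1 of the 51, and TGACGTCA in 1.59% and in 0. A match is a description of these letters and not a binding site.

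The 9 genes lower in macrophages than in WT spleen came from several families. *Kcna3* was at 4.86 and 4.91 in BMDM against 7.98 and 7.77 in WT spleen, a difference of -2.99 (SE 0.444, adjusted p = 0.0061). *Kcna2* was at 3.67 and 5.20 against 8.11 and 7.38, a difference of -3.30 (SE 0.564, adjusted p = 0.0087). *Kcnmb1* was lower too (-1.60, adjusted p = 0.0102). BMDM was below the limit on both arrays for the other 6, whose differences are given as WT spleen minus the limit. They were *Kcnk12* (lower by at least 1.78), *Kcnj10* (1.23), *Kcnq5* (1.02), *Kcnk1* (0.83), *Kcne5* (0.80) and *Kcne4* (0.73), with adjusted p-values from 0.0030 to 0.0442 in the fit. *Abcc9*, the receptor subunit that joins *Kcnj8* in the vascular ATP-sensitive channel, was lower too (by at least 1.85, adjusted p = 0.0063 in the fit). *Slc12a7*, a potassium chloride cotransporter, was lower (-1.66, adjusted p = 0.033), and *Atp1b3*, a sodium pump subunit, higher (1.62, adjusted p = 0.0123).

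**Figure D5:**
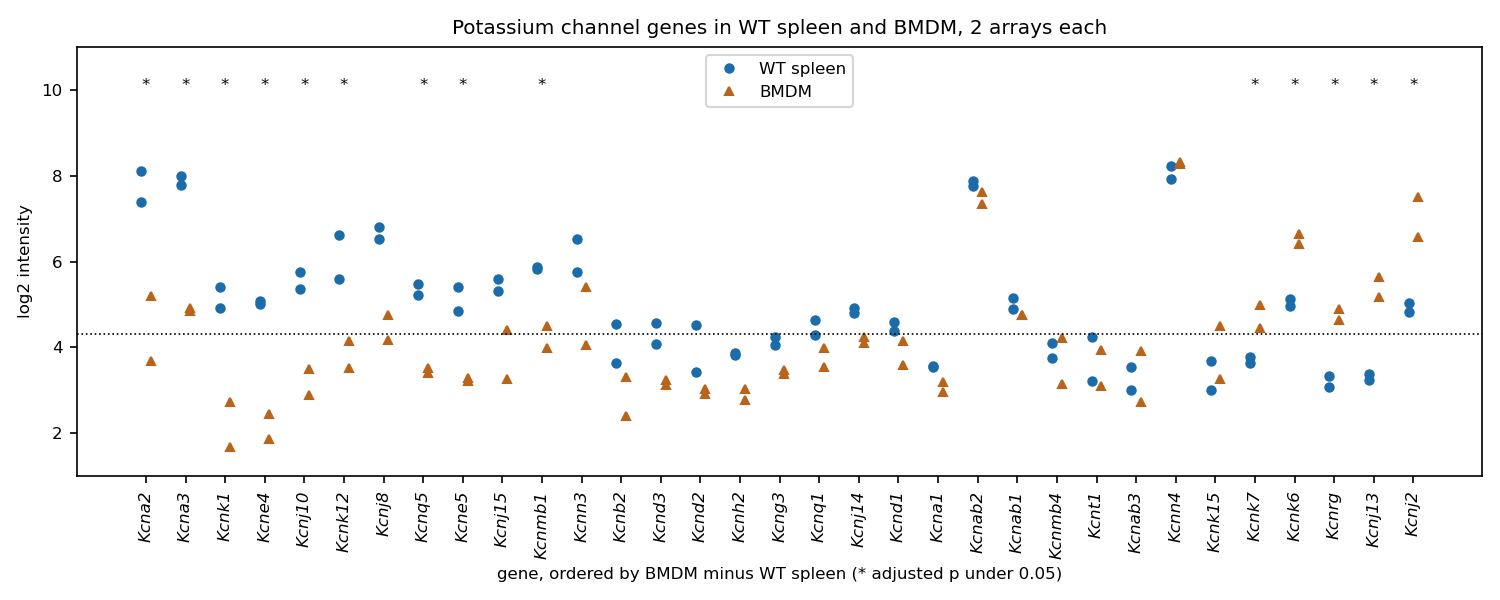
Log2 intensity of the 33 channel genes tested in BMDM (triangles) and in WT spleen (circles), with 2 arrays each, ordered by BMDM minus spleen. Asterisks mark genes that passed the test between them, and the dotted line is the intensity limit of 20. *Kcnj2*, *Kcnj13*, *Kcnrg*, *Kcnk6* and *Kcnk7* are higher in BMDM, and *Kcna2*, *Kcna3* and *Kcnk1* are among those lower.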

How the data were processed

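RNA of 32 samples was hybridised to Affymetrix Rat Gene 2.1 ST arrays. The authors normalized the scans by RMA in R/Bioconductor (versions not given in the sources used here) and deposited the values as linear intensities for 36685 probe sets, which were taken as log2 here. Exact values were shared by 0 to 1 positions between a spleen or BMDM array and a region array, against 61 to 161 and 8 to 132 within each set, so the sets were treated as normalized apart and tests stayed within a set. All columns were mapped (0 were not). By the platform annotation 14824 probe sets had a single symbol, 829 had more than 1 and 21032 were unnamed. Genes were kept if at least 1 array of the set reached an intensity of 20.

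Groups were fitted with limma 3.58.1 in R 4.3.3 and p-values were adjusted by Benjamini-Hochberg over all genes tested, with a threshold of 0.05. The mean over the 4 regions was fitted on 6 values, 1 per genotype and replicate number. Single regions and tissues were fitted on 24 arrays in 12 groups, with a pair of tissues called only where the F test across tissues passed. WT and KO spleen and BMDM were fitted together. The study's methods name only a two-tailed t test, which was run as an alternative. The fits were tested on simulated data. Other alternatives were the filter, the normalization, arrays left out and a replicate block.

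Genes were named if called between KO or HET and WT, if on the microglia or macrophage, astrocyte, vascular, choroid plexus or T cell lists, if among the 4 largest leads of a region, or among the 4 largest differences in each direction between BMDM and spleen. Genes named by an unadjusted p were added after their values were seen. The members and lists were chosen with earlier results of these data known.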

Additional observations from a re-analysis of the deposited data

Results flagged for a closer look

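Spleen HET 2 was not used in a test, and 5 channel genes there were more than 1 log2 unit above both WT spleen arrays and above the intensity limit, a threshold chosen after the values were seen. The share of all genes past this threshold is not given, so the count is not read as particular to channel genes. *Kcna1* was at 9.16 on that array, beside a highest WT value of 3.57. *Kcnh2* was at 7.37 (highest WT 3.87) and *Kcng3* at 5.69 (4.24). *Kcnmb4*, an auxiliary subunit of the large-conductance calcium-activated channel, was at 5.29 (4.11), and *Kcnab3* at 4.64 (3.53). HET 1 did not share them, with *Kcna1* at 3.78 and *Kcnh2* at 3.39. The same 5 genes were also high on KO 2, at 9.70, 7.58, 5.71, 4.89 and 5.88 in the same order. On these 2 arrays *Prss16* was at 10.47 and 10.76 and *Rag1* at 10.50 and 10.38, genes of the thymus, and the thymus marker mean was 8.7 and 9.0. *Tlx1*, a spleen gene, was at 2.86 and 3.56, beside 7.38 to 7.87 on the other spleen arrays. The part of the thymus transcripts in the result was not tested.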

How the results depend on the processing

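Of 1082 alternatives for 56 gene results, 1007 kept direction and side of the threshold, 65 lost significance, 2 gained it and 8 changed sign. Of 355 alternatives for 16 counts of channel genes, 332 stayed within 1.5 times. The 4 genes called on the arrays labelled olfactory bulbs became 2 without a filter, 2 with a filter on the 4 arrays compared (chosen after seeing the data), 0 without the 8 arrays carrying another tissue and 0 with that region's arrays alone, and 0 to 7 with 1 array left out. The 14 of BMDM against spleen became 9 at an intensity of 50, 0 with a replicate block, and 4 to 23 with 1 array left out. The 30 between hippocampus and striatum became 16 with WT arrays only. With the 8 arrays left out, 0 became 1 for the mean of the 4 regions and for the arrays labelled pituitary gland. With 1 array left out, the counts of 0 ranged from 0 to 1 in the hippocampus and on the arrays labelled pituitary gland, from 0 to 2 for the effect differing between regions and from 0 to 12 in the spleen. Leaving out 1 array left 1 array in a group, and the share of all genes called in these fits is not given. In the spleen without KO 1, the lone KO array was KO 2, which carried thymus transcripts. The counts with 1 array left out are therefore not read as particular to channel genes. The cause of the changes was not tested.

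Differences over the 4 regions that changed sign were those of *Kcnj2* without the arrays labelled olfactory bulbs (-0.24), *Kcnn3* without them (-0.12) and without the 8 arrays (-0.11), and *Kcnn4* without the 8 arrays (-0.059). With 1 replicate left out, they ran from -0.0036 to 0.31 for *Kcnj2*, from -0.15 to 0.27 for *Kcnn3*, from -0.041 to 0.091 for *Kcnn4* and from -0.23 to 0.097 for *Kcna3*. Arrays with equal replicate numbers shared little deviation, as only 4 of 66 pairs of groups had a correlation of deviations over 0.1 (range -0.273 to 0.447). With 2 arrays per group, this check cannot decide whether equal numbers came from the same rat. The replicate block left 4 calls on the arrays labelled olfactory bulbs and moved no count by over 1.5 times other than that of BMDM. Genes near an intensity of 20 carry little signal over background, which limits *Kcnk6*, *Kcnn4*, *Kcnk13*, *Kcne3*, *Kcne4*, *Kcng4*, *Kcnq3* and *Kcns2* most.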
